A study of Mus musculus with 20 samples.

Results

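The 10 genes described here mark hepatic stellate cells or belong to the TGF-beta pathway of fibrosis, and were followed in liver and white adipose tissue (WAT) of mice with and without CD44. They were chosen by name, as all probes other than controls that carry the symbol Acta2, Des, Lrat, Pdgfra, Pdgfrb, Tgfb1, Tgfbi, Ctgf (now Ccn2), Dcn or Lum. These 10 genes, of 27670 symbols on the array, were read by 17 of its 41174 probes, and each gene is described by its brightest probe, with other probes given where they differ. RNA of 20 samples, 5 WT(HFD) and 5 CD44KO(HFD) livers and 5 WT(HFD) and 5 CD44KO(HFD) WAT, had been hybridised in a single colour to Agilent mouse 44k arrays, one array per sample. All mice were males on a C57BL/6 background, 7 months of age, and all had spent 21 weeks on a diet with 35% fat (HFD), so that no lean group is included here. CD44KO mice lack CD44, a membrane receptor for hyaluronan and osteopontin, in every cell of the body, and the mutation had been backcrossed to C57BL/6J. No label says which liver and which WAT came from the same mouse, and nothing says that RNA was pooled.

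Hepatic stellate cells lie between the hepatocytes and the endothelium of the sinusoids, and in the healthy liver they store vitamin A as retinyl esters. On injury they turn into myofibroblasts, which lose these stores, build actin fibres and lay down collagen. TGF-beta, released from a latent complex in the matrix, drives that change through its receptors and the Smad proteins, and PDGF, acting through its receptors, makes the cells divide and migrate. In WAT the same receptors and matrix genes are expressed by adipose fibroblasts and progenitors and by the cells of vessel walls. In such bulk tissue, fewer cells of a type and less RNA per cell cannot be told apart.

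Values are log2 of the deposited processed signal after subtraction of each array's 75th percentile, so that 0 is the 75th percentile of an array. Levels of different probes are not comparable with each other. A probe entered the test if either group had it well above background on 3 or more of its 5 arrays, and CD44KO(HFD) was compared with WT(HFD) by limma, with Benjamini-Hochberg adjustment over all probes tested and a threshold of 0.05. The 75th percentile itself ran from 432.7 to 574.6 in liver and from 1541 to 2792 in WAT. Of the spots other than controls, 57.4% to 61.9% were well above background on liver arrays and 63.2% to 89.5% on WAT arrays. The highest share was that of WT(HFD) WAT replicate 1, with the next WAT array at 69.5%, and that array correlated with the other WT(HFD) WAT arrays less (r of 0.826 to 0.842 across probes) than liver replicates did with each other (at least 0.981). The 9 genes tested in WAT are therefore also given without it. Cd44, the gene removed, fell 18.5-fold in CD44KO(HFD) liver (log2 fold change -4.21, standard error, SE, 0.20, limma adjusted p = 6.65e-06), where 3 of 5 CD44KO(HFD) arrays were well above background and normexp background correction gave -2.525, and 23.8-fold in CD44KO(HFD) WAT (-4.57, SE 0.19, limma adjusted p = 7.63e-06).

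In liver, 2 of the 10 genes fell and none rose. Pdgfrb, the PDGF receptor that stellate cells gain when they are activated, fell 1.78-fold, and Dcn, the matrix proteoglycan decorin, fell 1.37-fold in CD44KO(HFD) mice. The call rate over all 24688 probes tested in liver was 13.6%, with 5.75% lower and 7.85% higher in CD44KO(HFD) liver. With a normexp background correction the share of lower probes among those called moved from 42.3% to 66.3%. Of the 10 genes, 8 had a log2 fold change below 0, with a median of -0.32 beside 0.08 over all probes tested. At an unadjusted p under 0.05, 4 of the 10 genes passed in liver, as did 32.2% of all probes tested.

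**Figure D1:**
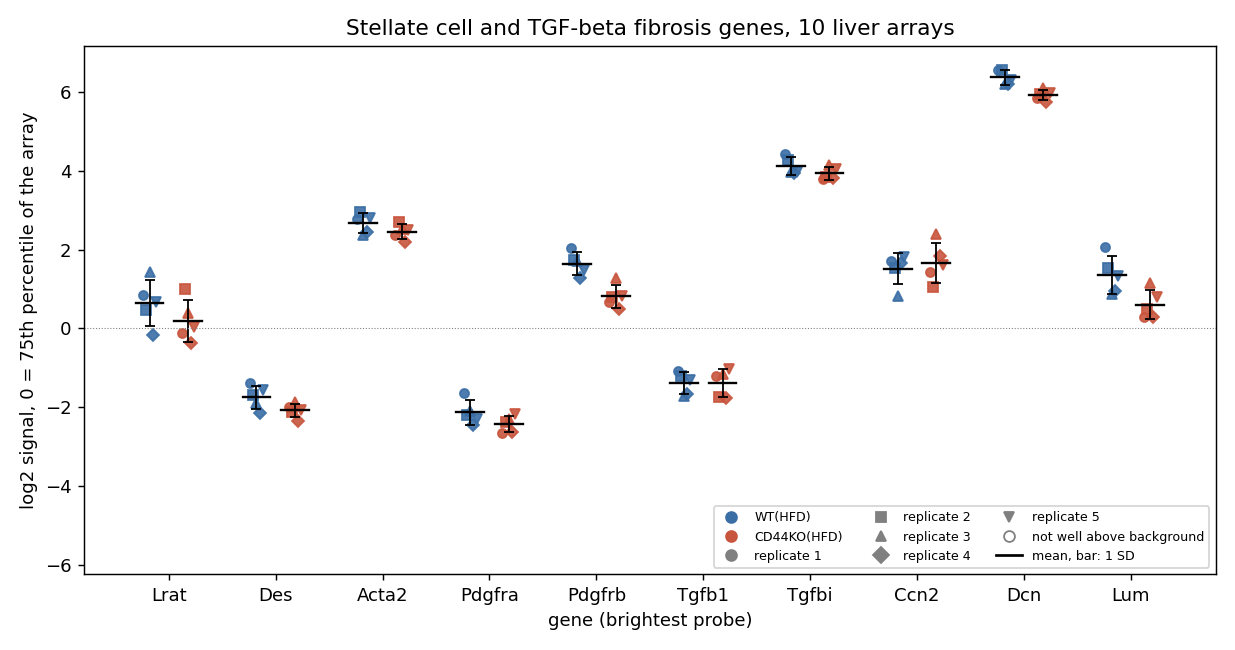
Log2 signal of the 10 genes on each of the 10 liver arrays (y axis, 0 is the 75th percentile of the array) by gene (x axis), with WT(HFD) in blue and CD44KO(HFD) in red, a symbol for each replicate number, and the mean with 1 SD in black. Dcn is the gene whose genotypes did not overlap (4.22% of all probes tested in liver lay below WT(HFD) without overlap). Pdgfrb overlapped by its lowest WT(HFD) array at 1.27 and its highest CD44KO(HFD) array at 1.28.

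Lrat makes the retinyl esters that quiescent stellate cells store, and it is the gene among the 10 whose signal was largely limited to liver. It was well above background on all 10 liver arrays, and its log2 signal averaged 0.65 ± 0.58 (SD, n = 5) for WT(HFD) and 0.19 ± 0.53 (SD, n = 5) for CD44KO(HFD). This difference, -0.46, was smaller than the spread of either group and did not pass the test (95% confidence interval -1.16 to 0.24, limma adjusted p = 0.341). CD44KO(HFD) liver replicate 2 read 0.997, above the WT(HFD) mean, and the other 4 arrays lay between -0.38 and 0.39. A second Lrat probe gave a log2 fold change of -1.06 in liver (SE 0.42, limma adjusted p = 0.113). In WAT the gene was well above background on 1 of 10 arrays, WT(HFD) replicate 1, the array that stood apart, and it was not tested. The WT(HFD) liver signal was at least 79.8-fold that of WT(HFD) WAT, and the CD44KO(HFD) liver signal at least 99.1-fold that of CD44KO(HFD) WAT, taking for each WAT array the dimmest signal that its scan called well above background.

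Des encodes desmin, an intermediate filament of stellate and muscle cells. On the liver arrays it averaged -1.74 ± 0.29 (SD, n = 5) for WT(HFD) and -2.09 ± 0.18 (SD, n = 5) for CD44KO(HFD). The WT(HFD) mean exceeded each of the 5 CD44KO(HFD) arrays, yet the log2 fold change of -0.34 did not pass (SE 0.15, limma adjusted p = 0.135). Without liver WT(HFD) replicate 4, the lowest of its group, it passed at -0.44 (limma adjusted p = 0.0453). In WAT the mean was -0.90 ± 0.62 (SD, n = 5) in WT(HFD) and -1.30 ± 0.49 (SD, n = 5) in CD44KO(HFD) mice, and the difference of -0.41 (limma adjusted p = 0.56) shrank to -0.14 without WT(HFD) replicate 1.

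Acta2 encodes smooth muscle alpha-actin, the classical protein of myofibroblasts and of vessel walls. Its probes did not give the same picture. The brightest probe lies on chromosome 19 from 33949738 to 33952992 in mm7, the build the file headers name, a span of 3255 bases for a probe of 60 bases, so that it crosses an intron. A second probe, printed on 10 spots per array, lies on the same strand, downstream by 6876 bases of genome, introns included, from 33942803 to 33942862. Their sequences are shown because the Acta2 result turns on them, the second by its first 30 bases.
Acta2 brightest probe: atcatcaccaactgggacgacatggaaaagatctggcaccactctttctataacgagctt
Acta2 second probe, first 30 bases: gttttgtggatcagcgcctccagttccttt

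The brightest Acta2 probe read 2.68 ± 0.25 (SD, n = 5) in WT(HFD) and 2.46 ± 0.18 (SD, n = 5) in CD44KO(HFD) liver, and the log2 difference of -0.22 did not pass (SE 0.13, limma adjusted p = 0.287). The second probe read 0.96, 1.42, 0.81, 1.06 and 2.29 on WT(HFD) liver arrays 1 to 5 and 0.22, -0.13, 0.73, -0.33 and 0.35 on CD44KO(HFD) liver arrays 1 to 5. No WT(HFD) array was as low as any CD44KO(HFD) array, and the log2 fold change was -1.14 (SE 0.29, limma adjusted p = 0.0319). Over all probes tested in liver, 4.22% lay below WT(HFD) without overlap. In WAT the brightest probe gave -0.63 (SE 0.32, limma adjusted p = 0.374) and the second one 0.66 (SE 0.24, limma adjusted p = 0.258), or -0.76 and 0.49 without WT(HFD) replicate 1. Another probe of the same transcript, dimmer and close to the second, gave 0.62 in WAT (limma adjusted p = 0.369), and in liver it was well above background on 3 WT(HFD) arrays and 1 CD44KO(HFD) array. A dim Acta2 probe from another transcript record gave -0.04 in liver (limma adjusted p = 0.963) and -0.55 in WAT (limma adjusted p = 0.702), and the dimmest of the 5 probes was not tested. The genotype effect on the second probe differed between liver and WAT by -1.79 (SE 0.39, limma interaction term, adjusted p = 0.0368), and that on the brightest probe by 0.41 (limma adjusted p = 0.587). What the probes bind besides Acta2, other actin transcripts included, was not tested. With an array left out in turn, the second probe stayed below 0 in liver, between -1.28 and -0.89, and passed the threshold in 4 of 10 fits. Without liver WT(HFD) replicates 1 or 2, or CD44KO(HFD) replicates 1, 2, 4 or 5, it missed the threshold, with an adjusted p of up to 0.0759 (limma).

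**Figure D2:**
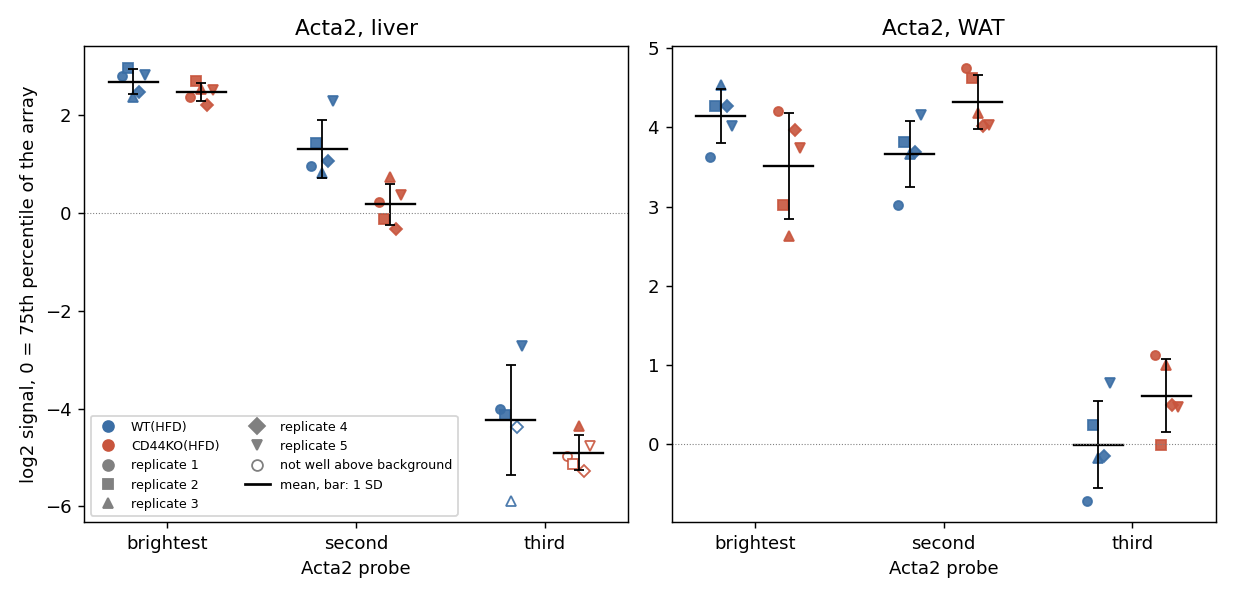
Log2 signal of the 3 brightest Acta2 probes (x axis) on each liver array (left) and WAT array (right), with 0 at the 75th percentile of the array, WT(HFD) in blue, CD44KO(HFD) in red, mean and 1 SD in black, and open symbols where the probe was not well above background. In liver the second probe separated the genotypes (-1.14) and the brightest did not (-0.22), and in WAT these probes differed in sign (0.66 and -0.63).

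Pdgfra and Pdgfrb encode the receptors for PDGF. Pdgfra read -2.13 ± 0.31 (SD, n = 5) in WT(HFD) and -2.43 ± 0.21 (SD, n = 5) in CD44KO(HFD) liver, and the log2 difference was -0.29 (SE 0.16, limma adjusted p = 0.226), with all 5 CD44KO(HFD) arrays below the WT(HFD) mean. In WAT, where Pdgfra marks fibroblasts and adipocyte progenitors, it read 1.35 ± 0.37 (SD, n = 5) and 1.28 ± 0.45 (SD, n = 5), a log2 fold change of -0.07 (95% confidence interval -0.64 to 0.50, limma adjusted p = 0.894), or -0.19 without WT(HFD) replicate 1. A second, dimmer Pdgfra probe had a log2 fold change of -1.20 in WAT (limma adjusted p = 0.29), -0.88 without WT(HFD) replicate 1, and was well above background on no liver array.

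Pdgfrb (NM_008809) was read by a single probe. On WT(HFD) liver arrays 1 to 5 it read 2.04, 1.73, 1.71, 1.27 and 1.47, and on CD44KO(HFD) liver arrays 1 to 5 it read 0.67, 0.80, 1.28, 0.49 and 0.82. The genotypes met at a single point, CD44KO(HFD) replicate 3 lying beside WT(HFD) replicate 4. CD44KO(HFD) minus WT(HFD) on the log2 scale was -0.83 (SE 0.17, 95% confidence interval -1.21 to -0.45, limma adjusted p = 0.0182), and a two-sided exact permutation test, which has 252 relabellings here, gave p = 0.0159. Within the 3 liver slides, each of which held both genotypes, the differences were -0.85, -0.71 and -1.04. Pdgfrb passed the threshold in 9 of 10 fits with an array left out and missed it without WT(HFD) replicate 2 (-0.81, limma adjusted p = 0.0514).

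In WAT the difference of Pdgfrb had the opposite sign. It read 3.29, 4.14, 3.82, 4.02 and 3.47 on WT(HFD) WAT arrays 1 to 5 and 4.34, 4.71, 4.50, 4.20 and 4.37 on CD44KO(HFD) WAT arrays 1 to 5. Every CD44KO(HFD) array was above every WT(HFD) array, as were 4.07% of all probes tested in WAT. The log2 fold change of 0.68 (SE 0.19) did not pass over all probes (limma adjusted p = 0.202), while the exact permutation test of this gene alone gave p = 0.0079, the smallest that 5 against 5 arrays allow. It was 0.56 (limma adjusted p = 0.197) without WT(HFD) replicate 1, the lowest array, and 0.88 and 0.69 within the slides that held both genotypes (the remaining WAT slide held CD44KO(HFD) alone). The effect in liver minus that in WAT was -1.51 (SE 0.26, limma interaction term, adjusted p = 0.014). Pdgfrb was the gene among the 10 for which this difference passed, beside a call rate of 1.15% over the 28987 probes tested, and it passed with each of the 20 arrays left out in turn, between -1.62 and -1.39.

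**Figure D3:**
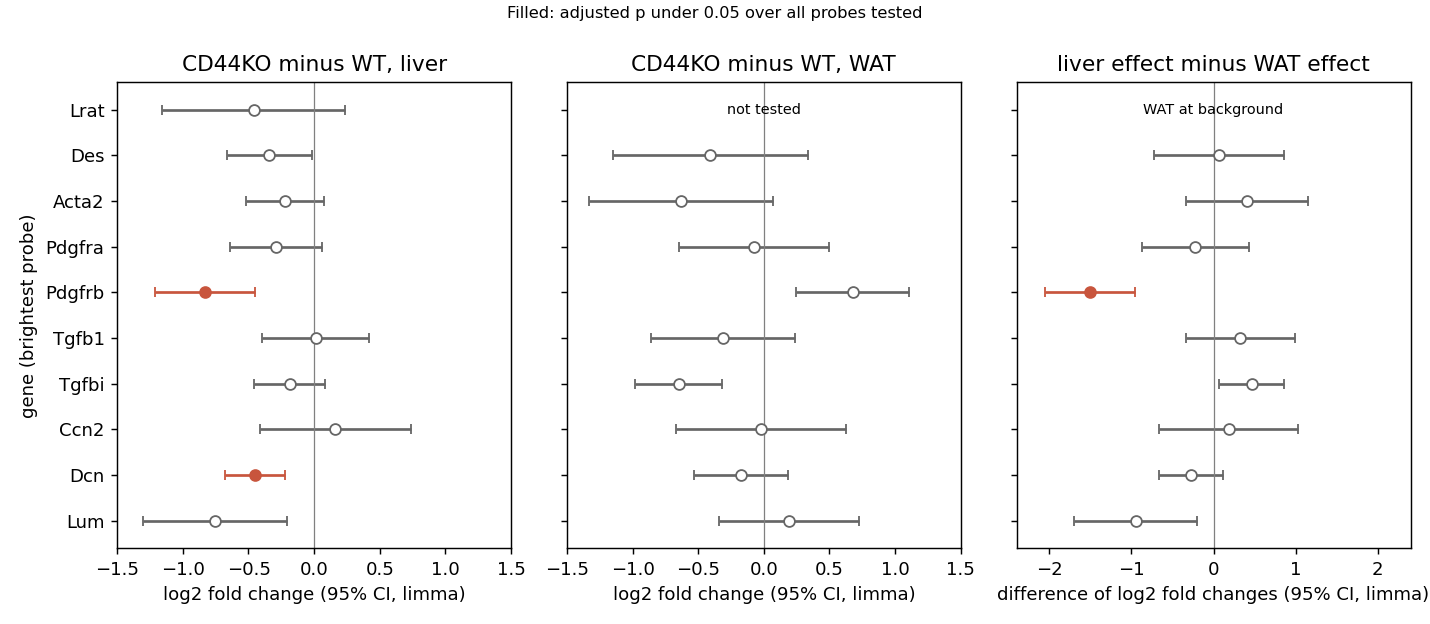
Log2 fold change of each gene's brightest probe, CD44KO(HFD) minus WT(HFD), in liver (left) and WAT (middle), and the difference of the 2 effects (right), with 95% confidence intervals from limma and filled red points where the adjusted p was under 0.05. Pdgfrb lay at -0.83 in liver and 0.68 in WAT, and its difference of -1.51 was past the threshold.

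Tgfb1, the ligand that gives the pathway its name, had almost the same signal in both genotypes in liver. It read -1.40 ± 0.28 (SD, n = 5) in WT(HFD) and -1.39 ± 0.35 (SD, n = 5) in CD44KO(HFD) liver, and the log2 difference was 0.01 with a 95% confidence interval of -0.40 to 0.42 (limma adjusted p = 0.974). In WAT it read 0.93 ± 0.23 (SD, n = 5) and 0.62 ± 0.51 (SD, n = 5), a log2 fold change of -0.31 (95% confidence interval -0.86 to 0.24, limma adjusted p = 0.548), or -0.37 without WT(HFD) replicate 1. CD44KO(HFD) WAT replicates 1 and 2 read 0.05 and 0.08, and the other 3 lay between 0.87 and 1.09, within the WT(HFD) range of 0.69 to 1.27.

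Tgfbi and Ccn2 are genes that TGF-beta induces. Tgfbi encodes a secreted matrix protein that binds collagen and integrins. In liver it read 4.12 ± 0.23 (SD, n = 5) in WT(HFD) and 3.94 ± 0.16 (SD, n = 5) in CD44KO(HFD) mice, and the log2 difference was -0.19 (limma adjusted p = 0.321). In WAT it read 3.95, 4.12, 4.40, 4.35 and 4.54 on WT(HFD) arrays 1 to 5 and 3.63, 3.65, 3.73, 3.67 and 3.42 on CD44KO(HFD) arrays 1 to 5. The CD44KO(HFD) WAT arrays lay together and below all WT(HFD) arrays, as did 2.07% of all probes tested in WAT. The log2 fold change of -0.65 (SE 0.15) did not pass over all probes (limma adjusted p = 0.168), and the exact permutation test of the gene alone gave p = 0.0079. It was -0.73 (limma adjusted p = 0.0869) without WT(HFD) replicate 1, and -0.616 and -0.615 within the slides that held both genotypes. The effects in liver and WAT differed by 0.46 (limma adjusted p = 0.235), which did not pass.

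Ccn2, connective tissue growth factor, is a secreted matricellular protein of activated stellate cells. It read 1.51 ± 0.39 (SD, n = 5) in WT(HFD) and 1.67 ± 0.51 (SD, n = 5) in CD44KO(HFD) liver, and 2.91 ± 0.45 (SD, n = 5) and 2.88 ± 0.51 (SD, n = 5) in WAT. The log2 fold changes were 0.16 in liver (95% confidence interval -0.42 to 0.74, limma adjusted p = 0.709) and -0.02 in WAT (95% confidence interval -0.67 to 0.62, limma adjusted p = 0.973), or -0.06 in WAT without WT(HFD) replicate 1. In both tissues 3 CD44KO(HFD) arrays lay above and 2 below the WT(HFD) mean.

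Dcn and Lum encode decorin and lumican, small leucine-rich proteoglycans that bind collagen fibrils, and decorin also binds TGF-beta. Dcn (NM_007833) was read on chromosome 10 from 97080086 to 97080145 (mm7), by the following probe.
Dcn brightest probe: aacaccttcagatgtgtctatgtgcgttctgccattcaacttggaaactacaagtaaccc

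Dcn read 6.58, 6.56, 6.22, 6.21 and 6.32 on WT(HFD) liver arrays 1 to 5 and 5.85, 5.95, 6.10, 5.76 and 5.98 on CD44KO(HFD) liver arrays 1 to 5. The genotypes did not overlap, the nearest being replicate 3 of CD44KO(HFD) and replicate 4 of WT(HFD). Of all probes tested in liver, 4.22% likewise lay below WT(HFD) without overlap. CD44KO(HFD) minus WT(HFD) on the log2 scale was -0.45 (SE 0.10, 95% confidence interval -0.68 to -0.22, limma adjusted p = 0.0234), and the exact permutation test gave p = 0.0079. Within the liver slides the differences were -0.54, -0.41 and -0.36. The call depended on single arrays. Without WT(HFD) replicate 1 or 2 or CD44KO(HFD) replicate 1 or 4, it missed the threshold, with an adjusted p of up to 0.0616 (limma) at log2 fold changes of -0.43 to -0.40. In WAT, Dcn read 7.32 ± 0.26 (SD, n = 5) in WT(HFD) and 7.14 ± 0.16 (SD, n = 5) in CD44KO(HFD) mice, and the log2 difference was -0.18 (limma adjusted p = 0.6), or -0.22 without WT(HFD) replicate 1, and the effects in the tissues differed by -0.28 (limma adjusted p = 0.486). A second Dcn probe, from another transcript record, was near background in both tissues and was not tested.

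Lum read 2.07, 1.54, 0.88, 0.94 and 1.33 on WT(HFD) liver arrays 1 to 5 and 0.28, 0.49, 1.14, 0.28 and 0.79 on CD44KO(HFD) liver arrays 1 to 5. The WT(HFD) mean exceeded each of the 5 CD44KO(HFD) arrays, while replicate 3 lay above 2 of the WT(HFD) arrays. The log2 fold change of -0.75 (SE 0.25) missed the threshold over all probes (limma adjusted p = 0.068), and the exact permutation test of the gene alone gave p = 0.0317. Without CD44KO(HFD) replicate 3 it passed at -0.89 (limma adjusted p = 0.0337), and it passed at -0.75 with the slide as a fixed block (limma adjusted p = 0.0243). In WAT the mean was 5.40 ± 0.33 (SD, n = 5) in WT(HFD) and 5.60 ± 0.43 (SD, n = 5) in CD44KO(HFD) mice, and the log2 difference was 0.19 (limma adjusted p = 0.692), or 0.14 without WT(HFD) replicate 1. The effects in the tissues differed by -0.95 (limma adjusted p = 0.2), which did not pass.

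In WAT none of the 9 genes tested passed, beside a call rate of 0.0398% (11 of 27651 probes tested by limma, with 4111 at an unadjusted p under 0.05). At an unadjusted p under 0.05, 2 of the 9 passed, Pdgfrb and Tgfbi. The median log2 fold change of the 9 genes was -0.18, beside -0.06 over all probes. Scaling each WAT array to its median in place of its 75th percentile moved the median of all probes to 0.42. With that shift the values of Des (0.07), Pdgfra (0.41), Tgfb1 (0.17), Ccn2 (0.46) and Dcn (0.31) came to lie above 0. Against the median of all probes, no gene of these changed side, with Des, Pdgfra, Tgfb1 and Dcn below it and Ccn2 above it under both scalings. Pdgfrb likewise stayed above it and Tgfbi below it (1.16 and -0.17 by median scaling). In a fit of all 20 arrays, which takes its spread from both tissues, both passed in WAT (limma adjusted p = 0.0407 and 0.013).

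**Figure D4:**
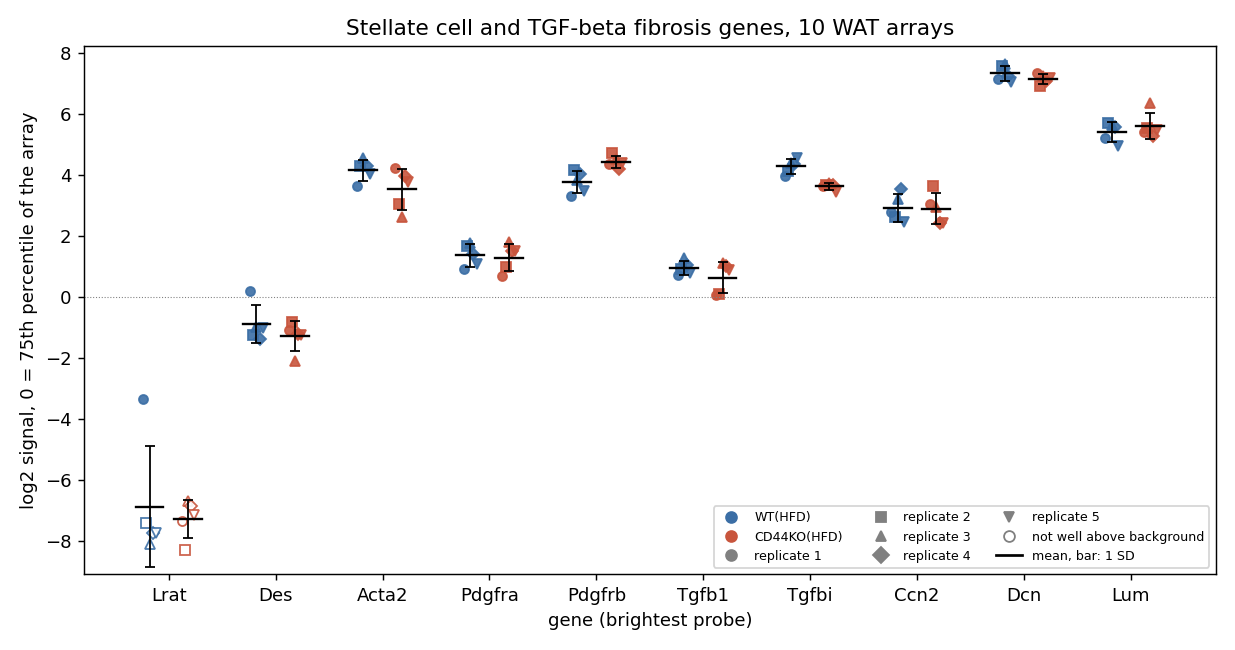
Log2 signal of the 10 genes on each of the 10 WAT arrays (y axis, 0 is the 75th percentile of the array) by gene (x axis), with WT(HFD) in blue and CD44KO(HFD) in red, a symbol for each replicate number, mean and 1 SD in black, and open symbols where the probe was not well above background. Tgfbi and Pdgfrb are the genes whose genotypes did not overlap, and Lrat was above background on 1 array. Of all probes tested in WAT, 2.07% lay below and 4.07% above WT(HFD) without overlap.

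Some arrays were high or low for many of the 10 genes. Among WT(HFD) livers, replicate 1 was the highest for 7 of the 10 genes and replicate 4 the lowest for 6. Among CD44KO(HFD) livers, replicate 3 was the highest for 6 and replicate 4 the lowest for 7. Genes that follow the same order across the 10 liver arrays were sought by Pearson's r with the mean of the 10 standardised genes, as a description in which the points share genotype, array quality and cell content. The 8 symbols with the highest r were Cavin1 (0.97), Mmp2 (0.97), Olfml3 (0.97), Fblim1 (0.97), Irf8 (0.97), Epb41l2 (0.97), Nedd9 (0.97) and Tpm1 (0.96, by another probe than the one described for its list). In WAT, over 10 arrays and 9 genes, they were Lgals3 (0.97), Sulf1 (0.95), Ctsa (0.95), Pf4 (0.95), Slc15a4 (0.93), Myo1f (0.92), Trim47 (0.92) and Dpy19l3 (0.91).

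Between the tissues of WT(HFD) mice, 9 of the 10 genes differed, beside a call rate of 70.5% over all probes (limma, all 20 arrays). Lrat was higher in liver, and Acta2, Des, Pdgfra, Pdgfrb, Tgfb1, Ccn2, Dcn and Lum were higher in WAT. The log2 difference of liver minus WAT was -4.05 for Lum, -3.49 for Pdgfra, -0.94 for Dcn and -0.85 for Des, and quantile normalization moved Dcn to -2.56 and Acta2 from -1.46 to -2.20. Tgfbi read 4.12 in WT(HFD) liver and 4.27 in WT(HFD) WAT, a difference of -0.15 that did not pass (95% confidence interval -0.42 to 0.13, limma adjusted p = 0.336), although it passed at -1.03 after quantile normalization. Des missed the threshold with normexp (-0.55, limma adjusted p = 0.0568). Liver and WAT arrays lay on different slides, so that tissue and slide cannot be told apart.

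The genes around the 10 in their pathways were read by 1 probe each, in lists named by function. No gene of any list passed in WAT, where the call rate was the 0.0398% given above. In liver, 5.75% of all probes tested were called lower and 7.85% higher in CD44KO(HFD) mice. Among genes that make or hold TGF-beta, 3 of 10 tested fell in CD44KO(HFD) liver and none rose, but 4 of the 10, Thbs1 among them, entered the test through WT(HFD) arrays alone, so that a fall is what such genes could show. Ltbp2 (-1.02, limma adjusted p = 0.0406) and Ltbp3 (-0.68, limma adjusted p = 0.0305) encode latent TGF-beta binding proteins, which tether the latent ligand to the matrix. Both calls were lost with normexp, they passed in 2 and 3 of 10 fits with an array left out, and the mean over its probes gave -0.21 for Ltbp2 (limma adjusted p = 0.316). Thbs1, thrombospondin 1, an activator of latent TGF-beta that the study itself listed from these arrays, was well above background on 3 WT(HFD) and on no CD44KO(HFD) arrays. Because not every WT(HFD) array was well above background either, no lower bound on its fold change follows. The limma call (log2 difference -1.685, adjusted p = 0.0213) rests on CD44KO(HFD) signals at background. With normexp background correction the log2 difference was 0.00 (limma adjusted p = 0.995). Tgfb3 (-0.47, limma adjusted p = 0.0754) did not pass, nor did Tgfb2, which was well above background on 4 WT(HFD) arrays and 1 CD44KO(HFD) array.

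Of 14 receptors, Smads and inhibitors tested, 1 fell and none rose in CD44KO(HFD) liver, with a median of -0.03. Over all probes tested in liver, 5.75% fell and 7.85% rose. The gene of this list that fell was Tgfbr2, the receptor that binds the ligand (-0.78, SE 0.22, limma adjusted p = 0.046). The log2 fold changes of Smad2, Smad3 and Smad4, which carry the signal to the nucleus, lay between 0.17 and 0.19 and did not pass. Smad7, an inhibitor that TGF-beta itself induces, had -0.37 (limma adjusted p = 0.0847). Smad6 (0.30, limma adjusted p = 0.0904) and Smurf1 (0.22, limma adjusted p = 0.075), inhibitors too, lay above 0 and did not pass. Of the 14 genes, 8 were below 0. Tgfbr2 passed in 2 of 10 fits with an array left out, and in 6 of 12 with other processing (limma adjusted p of up to 0.206).

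Of 13 TGF-beta target genes tested, 3 fell and none rose in liver, with a median of -0.38, beside 5.75% lower over all probes. All 3 encode chains of fibrillar collagen, and the study had listed Col1a1 and Col3a1 from these same arrays, so that they are not independent evidence. Col1a2, the chain that pairs with Col1a1, had a mean of 3.94 ± 0.47 (SD, n = 5) in WT(HFD) and fell in CD44KO(HFD) liver to 2.28 ± 0.86 (SD, n = 5), a difference of -1.67 on that scale (SE 0.39, limma adjusted p = 0.0257). Col1a1 had -2.38 (limma adjusted p = 0.0255) and Col3a1 -1.60 (limma adjusted p = 0.0227). Postn and Sparc, which encode matrix proteins, had log2 fold changes of -0.75 and -0.69 and did not pass (limma adjusted p = 0.0601 and 0.0528). Fn1, another gene of this list, lay above 0 and did not pass either (0.36, limma adjusted p = 0.0791). Of the 13 genes, 11 were below 0. Each of the collagen genes passed in 5 or 6 of 10 fits with an array left out.

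Among the PDGF genes, 3 of 6 fell in liver, with a median of -0.53, and 1 of these was Pdgfrb. The share of all probes tested in liver that fell was 5.75%. Pdgfa (-0.70, SE 0.14, limma adjusted p = 0.0181) and Pdgfc (-0.74, SE 0.17, limma adjusted p = 0.0229), ligands of the PDGF receptors, were lower on all CD44KO(HFD) liver arrays than on all WT(HFD) arrays. So were 4.22% of all probes tested in liver. With normexp Pdgfc did not pass (limma adjusted p = 0.126), and it passed in 7 of 10 fits with an array left out. Pdgfb, a ligand with high affinity for Pdgfrb, had a log2 fold change of 0.03 (limma adjusted p = 0.934). In WAT the log2 fold changes of Pdgfa and Pdgfc were 0.40 and 0.35 and did not pass (limma adjusted p = 0.363 and 0.455). The difference between the tissues passed for Pdgfa (-1.10, limma adjusted p = 0.0372) and not for Pdgfc (-1.09, limma adjusted p = 0.0612).

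Of 13 genes of quiescent stellate cells tested in liver, Lrat among them, 3 fell and 1 rose, with a median of -0.29. Over all probes tested in liver, 5.75% fell and 7.85% rose. Rgs5, a regulator of G protein signalling in pericytes and stellate cells, fell by 0.94 on the log2 scale (SE 0.10, limma adjusted p = 0.0019). Colec11, a lectin, fell by 0.38 (limma adjusted p = 0.0229), and was named after its value was seen. Ecm1, a matrix protein that hepatocytes also make, rose by 0.43 (SE 0.10, limma adjusted p = 0.0222), passed in 5 of 10 fits with an array left out and did not pass with normexp (0.34, limma adjusted p = 0.321). Gfap, a classical stellate marker in rodents, was tested in neither tissue.

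Of 12 contractile and cytoskeletal genes tested, 3 fell and none rose in liver, with a median of -0.47, beside 5.75% lower over all probes. Tagln, an actin binding protein of smooth muscle and myofibroblasts, fell from 3.25 ± 0.17 (SD, n = 5) to 2.45 ± 0.24 (SD, n = 5) without overlap (-0.80, SE 0.13, limma adjusted p = 0.0103). Such a separation below WT(HFD) was seen for 4.22% of all probes tested in liver. S100a6, a calcium binding protein (-1.20, limma adjusted p = 0.0314), and Tpm1, a tropomyosin (-0.88, limma adjusted p = 0.03), also fell. Tagln passed in all 10 fits with an array left out, and S100a6 and Tpm1 in 3 each. Of 9 proteoglycans of the decorin family tested, Dcn alone fell, and Bgn, biglycan, had -0.12 (limma adjusted p = 0.749). Of the 4 CCN genes tested, Ccn5 fell (-1.35, SE 0.31, limma adjusted p = 0.0251), although 2 of its 5 CD44KO(HFD) arrays were not well above background. It passed in 4 of 10 fits with an array left out, and with normexp the value was -0.21 (limma adjusted p = 0.679).

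**Figure D5:**
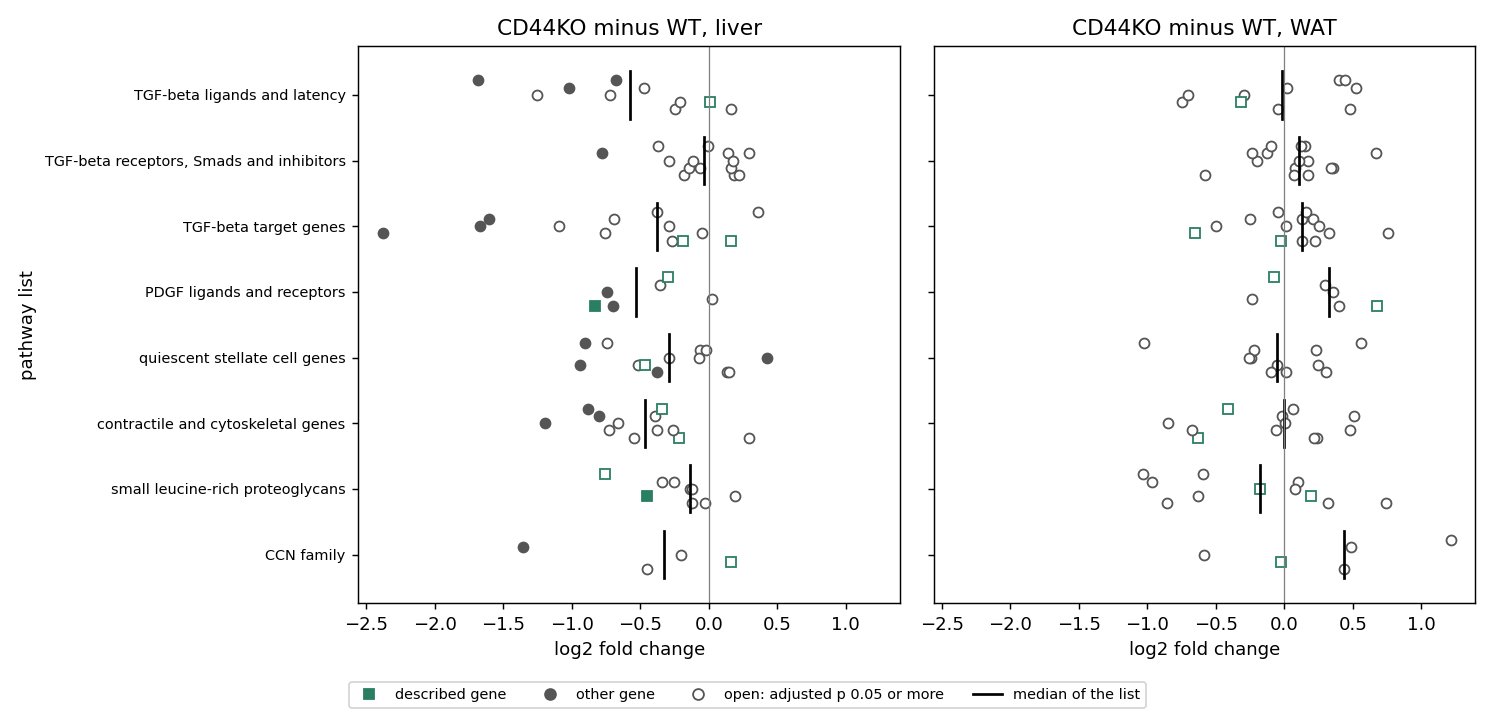
Log2 fold change of CD44KO(HFD) over WT(HFD) (x axis) for each gene tested in 8 pathway lists (y axis), in liver (left) and WAT (right), with green squares for the 10 genes of interest, filled symbols where the adjusted p was under 0.05 and a black line at the list's median. Filled symbols lie on the left of 0 in the liver panel, apart from Ecm1 at 0.43, and the WAT panel holds none. Over all probes tested in liver, 5.75% fell and 7.85% rose.

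Markers of other cell types were read in liver too, where 5.75% of all probes tested fell and 7.85% rose. The summed linear signal of 6 smooth muscle markers, all above background on every liver array, ranged from 11.3 to 14.5 in WT(HFD) and from 6.72 to 8.97 in CD44KO(HFD) liver. Of the 6, only Tagln, described above, passed, and the sum was mostly its signal. All 6 had log2 fold changes below 0. Of 6 markers of portal and adventitial fibroblasts tested, 3 fell, with sums of 4.72 to 9.06 in WT(HFD) and 3.25 to 5.52 in CD44KO(HFD) liver. These sums were mostly the signal of Entpd2, which did not pass (-0.61, limma adjusted p = 0.11). Of 5 cholangiocyte markers, Sox9 (-0.70, limma adjusted p = 0.0497) and Spp1 (-1.54, limma adjusted p = 0.0302), which encodes osteopontin and is not limited to cholangiocytes, fell. Krt7 (-0.19, limma adjusted p = 0.583), Krt19 (-0.48, limma adjusted p = 0.141) and Epcam (-0.44, limma adjusted p = 0.271), keratins and an adhesion protein of these cells, did not pass, and the summed signal (18.8 to 78.5 in WT(HFD) and 9.01 to 19.5 in CD44KO(HFD) liver) was mostly that of Spp1. Of 4 skeletal muscle markers tested in liver, Acta1, another actin, fell (-0.90, limma adjusted p = 0.0254). Mylpf (0.12), Tnnt3 (0.31) and Myh4 (0.36) lay above 0 and did not pass. The median of this list was 0.21, and its summed signals overlapped. In the other direction, 2 of 6 hepatocyte markers and 2 of 5 Kupffer cell markers rose, with hepatocyte sums of 1709 to 2377 and 2293 to 2710. The sums of 6 macrophage markers overlapped (42.4 to 97.3 and 38.6 to 115.8), as did those of 6 endothelial markers (4.69 to 9.56 and 7.54 to 11.7). The part of these cells in the lower signal of Pdgfrb, Dcn and the pathway genes was not tested.

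In WAT none of the marker genes passed. The sums of the 6 adipocyte markers ranged from 123.7 to 286.3 in WT(HFD) and from 280.0 to 492.6 in CD44KO(HFD) WAT, and those of the endothelial markers from 7.45 to 14.1 and from 15.4 to 25.2. Mesothelial markers summed to 2.31 to 11.4 in WT(HFD) and 1.04 to 3.49 in CD44KO(HFD) WAT, and smooth muscle markers to 14.1 to 18.6 and 16.0 to 26.9. Epididymis markers, the tissue that borders one fat depot, were low, between 0.115 and 1.57 in WT(HFD) and between 0.098 and 0.406 in CD44KO(HFD) WAT. Skeletal muscle markers summed to 1.33 to 3.51 and 1.66 to 1.96. Without WT(HFD) replicate 1 the WT(HFD) sums reached 0.236 for epididymis and 1.53 for skeletal muscle markers, and began at 216.0 for adipocyte and 13.3 for endothelial markers. Macrophage markers summed to 248.2 to 357.9 in WT(HFD) and 262.8 to 330.7 in CD44KO(HFD) WAT, with 5 of 6 below 0, a median log2 fold change of -0.44 and Msr1 not overlapping (-0.75, limma adjusted p = 0.231). Of the adventitial fibroblast markers, with sums of 76.5 to 102.7 and 78.4 to 86.1, Pi16 did not overlap (-1.66, limma adjusted p = 0.112). The others tested lay between -0.24 (Cd34) and 0.30 (Eln), with Fbln2 (0.28) also above 0 and a list median of -0.15. Like Msr1 and Pi16, 2.07% of all probes tested in WAT lay below WT(HFD) without overlap. Pvalb, a skeletal muscle marker (0.69, limma adjusted p = 0.225), and 2 adipocyte markers lay above WT(HFD) without overlap, as did 4.07% of all probes. Of the endothelial markers, 1 did not overlap. The part of these cells in the values of Pdgfrb and Tgfbi in WAT was not tested.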

How the data were processed

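RNA from liver and from WAT, 5 samples per genotype and tissue, was measured on 20 single-colour arrays. The authors deposited, per spot, a linear processed intensity (Feature Extraction 9.5.3.1) that was not scaled between arrays, had no background subtracted and had dim signals replaced by estimates. The deposited series table held the same intensity on 20 of 20 arrays. The methods name no test for the arrays. Of 45018 spots, 43379 were not controls and read 41174 probes. Symbols were updated through RefSeq accessions where they matched (22951 probes).

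Each array's log2 intensity had its 75th percentile subtracted, outlier spots were left out and the spots of a probe averaged. Probes well above background (13 standard deviations, per the file headers) on 3 of 5 arrays of a group were tested with limma 3.58.1 in R 4.3.3, 24688 in liver and 27651 in WAT, without a block. For single genes, an exact permutation test (two-sided) was added. The difference between tissues was an interaction term in a fit of 20 arrays. For Lrat between the tissues, where WAT was at background, folds are lower bounds. The limma fit of the genotypes within a tissue was run on simulated arrays with changed probes. The number of arrays limits the precision.

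The 10 genes and all lists were chosen with earlier results of these data known. Named beside them were Cd44, up to 3 genes past the threshold with the largest change per pathway list and tissue, and the 8 symbols most like the 10 genes. Where nothing says that samples of a group came from separate extractions, p-values measure the spread between these samples. Replicate numbers come from the sample titles. Some genes counted in the lists are not reported here by name.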

Additional observations from a re-analysis of the deposited data

Results flagged for a closer look

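On 3 occasions a single WAT array lay apart from the other 4 of its group. Des in WT(HFD) WAT replicate 1 was high, with a gap to the next array of 0.746 of the group's range, and without that array the genotype difference of Des was -0.14. Lum in CD44KO(HFD) WAT replicate 3 was high (0.755 of the range). Ltbp3 in WT(HFD) WAT replicate 1 was low (0.829 of the range). Of 113 groups examined, chance alone gives about 5.65 such cases.

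For 8 probes the genotype effect in liver differed from that in WAT by the interaction term of limma, with negative values where the liver effect was the lower. The difference was -1.51 for Pdgfrb, -1.79 for the second Acta2 probe, -2.57 for Ccn5, -1.10 for Pdgfa, -1.08 for Ltbp3, -2.71 for Col1a1, -1.81 for Col3a1 and -1.31 for Tagln. In WAT alone none of these 8 passed the threshold. Those other than Pdgfrb and the Acta2 probe were examined because their genes had passed in liver. Of the genes so chosen, all but Ecm1 had fallen there, so that negative differences were favoured. Over all 28987 probes tested, the call rate for this difference was 1.15%. The tissues lay on different slides.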

How the results depend on the processing

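The 10 liver genes gave 2 calls. This count was 1 without a filter on dim probes, with the replicate block and in a fit of all 20 arrays, where Dcn was lost, 3 (Lum added) with the slide as a fixed or random block and with array weights, and 0 to 3 with an array left out. The probes called in liver (3358) became 641 with normexp, 1027 without the filter, 1329 with the replicate block, 638 in the fit of all 20 arrays, at most 4859 among such settings, and 858 (without WT(HFD) replicate 2) to 4647 (without CD44KO(HFD) replicate 3). The 11 probes called in WAT became 35 with normexp, 4 with the percentile of probes well above background, 19 by median scaling, 3 without the filter, 3 with the replicate block, 4 with the slide as a fixed block, 1647 in the fit of all 20 arrays, 2851 with array weights, 7 with means over a gene's probes, and 3 to 19 with an array left out. The 0 genes of interest called in WAT became 2 in the fit of all 20 arrays and 1 with array weights. Replicate numbers were not treated as pairs, since no label says what a shared number means. The correlation of the deviations of same-numbered samples was over 0.1 for 3 of 5 pairs in liver (up to 0.42) and for 0 of 5 in WAT. In liver 3 of 10 samples, and in WAT 0 of 10, correlated best with their own number. These correlations cannot settle whether samples were paired.

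Signs turned in these cases, and the cause was not tested except for median scaling, which moved the median of all WAT probes from -0.06 to 0.42 and the genes given for it below. With normexp, Thbs1 in liver was 0.0034, Ccn2 in WAT 0.043 and the tissue difference of Pdgfra 0.033. Tgfb1 in liver was -0.031 with the percentile of probes well above background. Median scaling gave, in WAT, Des 0.073, Pdgfra 0.41, Tgfb1 0.17, Ccn2 0.46 and Dcn 0.31. In WAT, the slide block gave Pdgfra 0.17 and Ccn2 0.014, array weights gave Lum -0.12, and means over probes gave Acta2 0.024. With an array left out, Tgfb1 in liver ranged from -0.076 to 0.11, Ccn2 in liver from -0.025 to 0.32, Pdgfra in WAT from -0.20 to 0.082, Ccn2 in WAT from -0.21 to 0.13, and the tissue differences of Des from -0.20 to 0.19 and of Ccn2 from -0.0022 to 0.37. Of the other single values, 1207 kept sign and side of the threshold, 141 no longer passed it and 10 newly passed it. Among called lower and higher probes, the lower share ran from 36.5% to 66.3% in liver and from 66.7% to 100% in WAT. Of the probes near background, Lrat in WAT has only a bound, and Thbs1 in liver has not even that. Leaving out arrays for the tissue differences and the WAT marker sums, and the slide as a block for the tissue differences, were chosen after seeing the data.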
